A study of Homo sapiens with 6 samples.

Results

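EGR1, EGR2, EGR3, NR4A1, IER2, IER3, IER5, BTG2, SGK1 and SRF, here called the immediate-early genes, are 10 of the 58302 genes counted in RNA-seq libraries of breast cancer cells with and without knockdown of the lncRNA Smyca. They were chosen by symbol, and all 10 were found and passed the filter on low counts. The choice was made with this comparison already known, so their fold changes are a description and carry no test of their own. Immediate-early genes are transcribed within minutes of a growth factor, serum or stress signal, without new protein synthesis, and their short-lived mRNAs decline soon after. The ERK cascade reaches many of them through SRF (serum response factor), which binds CArG boxes together with ELK or MRTF cofactors, and through CREB, which binds cyclic AMP response elements. In carcinoma cells their levels follow growth factor signaling, adhesion and stress, and several of their products are themselves transcription factors that pass the signal on.

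The libraries came from cells labelled MDA-MB231 that expressed a control shRNA (3 repeats) or Smyca shRNA #1 (3 repeats), with no treatment given in the labels. Both groups carried an shRNA vector, and knockdown rested on a single shRNA sequence. The study's text calls the repeats biological, while the labels do not say whether they were separate cultures, and the p-values measure the spread between these libraries. Total counts per library lay between 14999307 and 16501085. Values are normalized CPM, that is, counts corrected for library size by the TMM method of edgeR, and fold changes are control over Smyca knockdown on the log2 scale with their standard error. Genes were called differentially expressed (DEGs) when, in edgeR's quasi-likelihood test over 15075 genes, the Benjamini-Hochberg adjusted p was under 0.05 and the ratio reached 1.5 or, in the other direction, 0.66.

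Before the results, 3 features of the libraries have to be stated. The markers went against the label, since the epithelial keratin KRT8 had 66358 to 112201 counts, while the mesenchymal filament gene VIM had 1122 to 4942. E-cadherin (CDH1), EPCAM, villin (VIL1) and the gut and liver factor HNF4A had counts in every library, and ESR1 had at most 3. The 6 markers of a mesenchymal basal-type line all had a positive log2 fold change, as 9 of the immediate-early genes did, with a median of 0.85. With edgeR's quasi-likelihood test 0 of the 6 were DEGs, and 4 had an unadjusted p under 0.05, all higher in the control as 10.4% of all genes were, namely VIM (log2 fold change 1.09), CAV1 (1.01), CD44 (0.94) and EGFR (0.77), of which VIM alone had no overlap (12.4% of all genes in this direction). Their summed level, 593 to 1292 normalized CPM in the control and 644 to 986 in the knockdown, was mostly MSN, with means of 607 and 589. The 9 intestine markers summed to 238 to 393 and 448 to 527, mostly VIL1. Of the 5 tested 2 were higher in the control. Those without overlap were VIL1 (log2 fold change -0.62, 12.5% of all genes in its direction) and LGALS4 (1.14, 12.4%). CDX1 was at 0, and KRT20, GPA33 and FABP1 had at most 6 counts in any library. The 8 liver markers summed to 129 to 268 and 272 to 342, with AFP, APOB and TTR at 0. Control repeat 3 stood apart, with 4.99% of its counts from mitochondrial genes against 1.78% to 2.72% in the others. In control repeat 2, the deposited FPKM column did not follow the count column and corresponded to 16759253 other reads, which were run as an alternative, the FPKM reads. These differed from control repeat 3 with a chi-square per degree of freedom of 2.35, against 15.7 to 82.9 between repeats of a group, so in that alternative 2 of the 3 controls were nearly alike and resembled control repeat 3. Values without these libraries stand beside the main results that they move, and the part of the marker levels was not tested. In bulk RNA, fewer cells of a kind and less RNA per cell cannot be told apart. Smyca itself (MIR23AHG) was at 25, 19.5 and 22 normalized CPM in the control and 10.5, 6.97 and 5.61 in the knockdown. Every knockdown library was below every control library, as for 12.4% of all genes. Its log2 fold change was 1.53 (adjusted p = 0.111 with edgeR's quasi-likelihood test), so it was not a DEG. On the other strand it overlaps ZSWIM4, with 703, 650 and 280 counts in the control and 477, 277 and 594 in the knockdown. The strand setting of the counting is not given in the sources used here, so reads of the pair may be mixed.

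Promoter sequences are shown first for EGR1, EGR2 and SRF, because the genes with a promoter window differ in whether it holds the SRF site. From the RefSeq table used here (GRCh38.p14), 14 windows of 8 of the 10 genes were searched, each with 250 bases before and 50 after a start site. IER3 had no entry there. EGR3 was left out by choice, for its location in the genome, so whether its promoter holds these sites was not tested. In the 150 bases just before the start, written 5′ to 3′ on the strand of the gene, capitals mark CArG boxes and the core of the cyclic AMP response element (TGACG, or CGTCA on the other strand). The stretches are chr5:138465329-138465478 on the plus strand for EGR1, chr10:62816367-62816516 on the minus strand for the third start of EGR2, and chr6:43171119-43171268 on the plus strand for the first start of SRF.
EGR1: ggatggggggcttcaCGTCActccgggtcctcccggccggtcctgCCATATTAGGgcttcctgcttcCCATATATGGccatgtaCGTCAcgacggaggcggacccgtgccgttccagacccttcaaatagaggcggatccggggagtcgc
EGR2: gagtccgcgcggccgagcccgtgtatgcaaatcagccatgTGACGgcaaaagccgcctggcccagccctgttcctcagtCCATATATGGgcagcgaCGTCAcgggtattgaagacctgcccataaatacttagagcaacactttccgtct
SRF: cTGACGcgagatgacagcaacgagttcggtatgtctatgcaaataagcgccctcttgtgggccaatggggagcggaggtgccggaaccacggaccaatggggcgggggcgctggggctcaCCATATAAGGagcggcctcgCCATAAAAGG

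EGR1 carried 2 CArG boxes, starting 105 and 83 bases before the start, EGR2 carried 1 at 71 bases, and SRF carried 2 at 30 and 10 bases. Both strands were searched. CArG boxes were found in 1.29% of all 35116 windows of the same length. The windows of NR4A1, IER2, IER5, BTG2 and SGK1 held none, which says only that these letters are absent there. TGACG, found in 24.6% of all windows, was present in EGR1, EGR2, IER2, BTG2 and SRF. The TATA letters TATAAA, found in 11.5%, were present in each of the 3 SGK1 windows and in SRF. CCGGAA, the ETS core that ELK cofactors recognise, was found in 17.2% of all windows and in NR4A1, IER2, IER5, SGK1 and SRF. The EGR site (GCGGGGGCG or GCGTGGGCG, 5.77% of all windows) was present in BTG2, SGK1 and SRF. These shares are per window, while a gene is named if any of its windows holds the letters, so the number of genes cannot be set against them. Matches of different motifs did not overlap in these windows. EGR1 and EGR2, with CArG boxes, were higher in the control, and SRF, with CArG boxes too, was lower there, as the values below give.

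Of the 10 genes, 9 had a positive log2 fold change, that is, a higher level in the control, and SRF a negative one. Over all genes tested, 53.4% were higher in the control. In 8 of the 10, each control library was above each knockdown library, which held for 12.4% of all genes tested. The exceptions were IER5 and SRF. The fold changes had a median of 1.35 on the log2 scale, against 0.036 over all genes. With edgeR's quasi-likelihood test 0 of the 10 were DEGs, where 0.0265% of all genes were, with adjusted p between 0.111 and 0.211. All 10 had an unadjusted p under 0.05, which 19.2% of all genes had, 9 of them higher in the control (10.4% of all genes), and DESeq2's Wald test called 8 as DEGs, all higher in the control, where it called 3.32% of all genes in that direction. As the genes were chosen on this contrast, nothing is read from these counts.

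**Figure D1:**
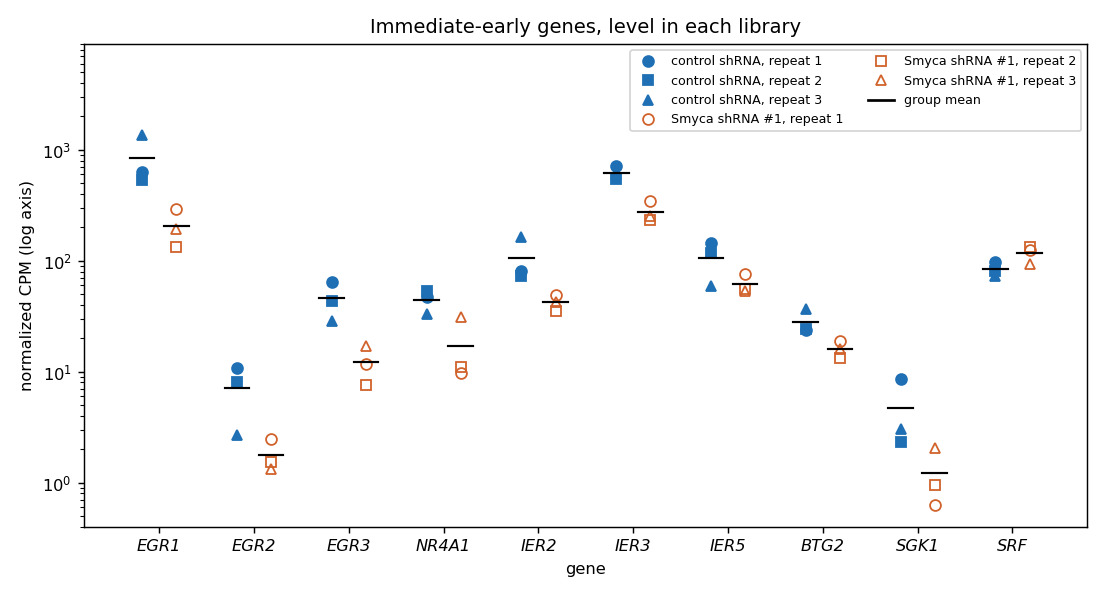
Normalized CPM (log axis) of the 10 genes in each of the 6 libraries, with filled blue symbols for control shRNA, open orange symbols for Smyca shRNA #1, a symbol shape per repeat number and a black line at each group mean. The groups overlap in IER5 and SRF, and SRF is the gene with the higher mean in the knockdown (117 against 83.7).

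The EGR genes encode zinc finger transcription factors that bind GC-rich sites. EGR1 (ENSG00000120738, chromosome 5, 138465479 to 138469303, plus strand) couples mitogens to growth factor and matrix genes. It was at 636, 538 and 1362 normalized CPM in the control and at 291, 133 and 193 in the knockdown. The groups did not overlap, and control repeat 3 was far above the other controls. The means were 845 ± 450 and 206 ± 79.5 (SD, n = 3 each). The log2 fold change was 2.04, with a standard error of 0.40 (adjusted p = 0.111 with edgeR's quasi-likelihood test). Without control repeat 3 the log2 fold change was 1.51, and with the reads of the FPKM column in place of control repeat 2 it was 2.47. These reads numbered 24859 for EGR1, against 8746 in the count column of the same library and 21265 in control repeat 3.

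EGR2 (ENSG00000122877, chromosome 10, 62811996 to 62819167, minus strand) is known from myelination and lymphocyte biology. It was at 10.7, 8.0 and 2.69 normalized CPM in the control and at 2.48, 1.52 and 1.32 in the knockdown. The groups did not overlap, but control repeat 3 lay close to the highest knockdown library, the reverse of its place in EGR1. Counts were low, from 20 to 174 per library, so counting error weighs more here than in EGR1. Its log2 fold change was 2.01 (standard error 0.52) and 2.39 without control repeat 3. EGR3 (ENSG00000179388, chromosome 8) acts in T cells, muscle spindles and neurons. Its values were 65.0, 43.8 and 28.9 normalized CPM in the control and 11.7, 7.67 and 17.1 in the knockdown, with no overlap. The means were 45.9 ± 18.1 and 12.1 ± 4.73 (SD, n = 3 each), and the log2 fold change was 1.92 (standard error 0.36). For EGR3 it was 2.16 without control repeat 3 and 1.75 with the FPKM reads. As in EGR2, control repeat 1 was the highest and control repeat 3 the lowest of the controls.

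NR4A1 (ENSG00000123358, chromosome 12, 52022832 to 52059507, plus strand) encodes the orphan nuclear receptor Nur77, which binds DNA without a known hormone and can promote apoptosis from mitochondria. It was at 47.4, 52.9 and 33.2 normalized CPM in the control and at 9.65, 11 and 31.0 in the knockdown. Knockdown repeat 3 nearly reached control repeat 3, while the other knockdown libraries were far below every control. The log2 fold change was 1.37 (standard error 0.43, adjusted p = 0.152 with edgeR's quasi-likelihood test) and 2.10 without knockdown repeat 3, so this library set the size of the difference. Knockdown repeat 3 was the highest knockdown library in EGR3 and SGK1 as well.

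The IER genes share a name for their fast induction, and IER2 and IER5 are related to each other in sequence. IER3 (ENSG00000137331, chromosome 6, 30743199 to 30744548, minus strand) encodes a small protein that modulates survival, NF-κB and ERK signaling. Its values were 719, 541 and 609 normalized CPM in the control and 345, 232 and 255 in the knockdown, with no overlap. The means were 623 ± 90.1 and 277 ± 59.7 (SD, n = 3 each), and the log2 fold change of 1.17 had a standard error of 0.19, a small one among these genes. It stayed between 1.05 and 1.35 with each library left out in turn and was 1.23 with the FPKM reads. Among the members higher in the control, this was the narrowest range over the libraries left out.

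IER2 (ENSG00000160888, chromosome 19, 13150411 to 13154911, plus strand) encodes a nuclear protein linked to cell motility. It lies 668968 bases from MIR23AHG, the gene of Smyca, on the same chromosome. Its values were 81.2, 72.6 and 165 normalized CPM in the control and 48.9, 35.4 and 42.3 in the knockdown, with no overlap and with control repeat 3 on its own at the top. For IER2 the log2 fold change was 1.33 (standard error 0.31) and 0.86 without control repeat 3. IER5 (ENSG00000162783, chromosome 1, 181088700 to 181092900, plus strand) encodes a protein that acts with HSF1 in heat shock gene expression. It was at 144, 117 and 58.8 normalized CPM in the control and at 75.5, 55.8 and 53.2 in the knockdown. The groups overlapped, because control repeat 3 was below knockdown repeat 1. The log2 fold change of IER5 was 0.79 (standard error 0.31, adjusted p = 0.211 with edgeR's quasi-likelihood test), 1.08 without control repeat 3 and 0.52 without control repeat 1.

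BTG2 (ENSG00000159388, chromosome 1, 203305491 to 203309602, plus strand) encodes an antiproliferative protein, a p53 target that recruits the CCR4-NOT deadenylase to mRNA. It was at 23.9, 24.3 and 36.5 normalized CPM in the control and at 18.7, 13.4 and 15.9 in the knockdown, with no overlap and control repeat 3 the highest. For BTG2 the log2 fold change was 0.82 (standard error 0.23) and 0.59 without control repeat 3. SGK1 (ENSG00000118515, chromosome 6, 134169248 to 134318112, minus strand) encodes a kinase of ion transport and survival that serum and glucocorticoids induce. Its values were 8.58, 2.34 and 3.07 normalized CPM in the control and 0.635, 0.950 and 2.05 in the knockdown. The groups did not overlap, but control repeat 1 alone was well above the rest, and counts were low, from 10 to 139 per library. For SGK1 the log2 fold change was 1.94 (standard error 0.61), 1.16 without control repeat 1 and 2.53 without knockdown repeat 3.

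SRF (ENSG00000112658, chromosome 6, 43171269 to 43181506, plus strand) encodes the factor that binds the CArG boxes shown above, and its mRNA is itself induced by serum. It was at 97.9, 80.2 and 73.1 normalized CPM in the control and at 124, 133 and 94.2 in the knockdown. The groups overlapped, as control repeat 1 was above knockdown repeat 3, and the direction was opposite to that of the other members. The means were 83.7 ± 12.8 and 117 ± 20.2 (SD, n = 3 each). The log2 fold change was -0.48, with a standard error of 0.18 (adjusted p = 0.206 with edgeR's quasi-likelihood test). It lay between -0.63 and -0.39 with each library left out in turn.

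**Figure D2:**
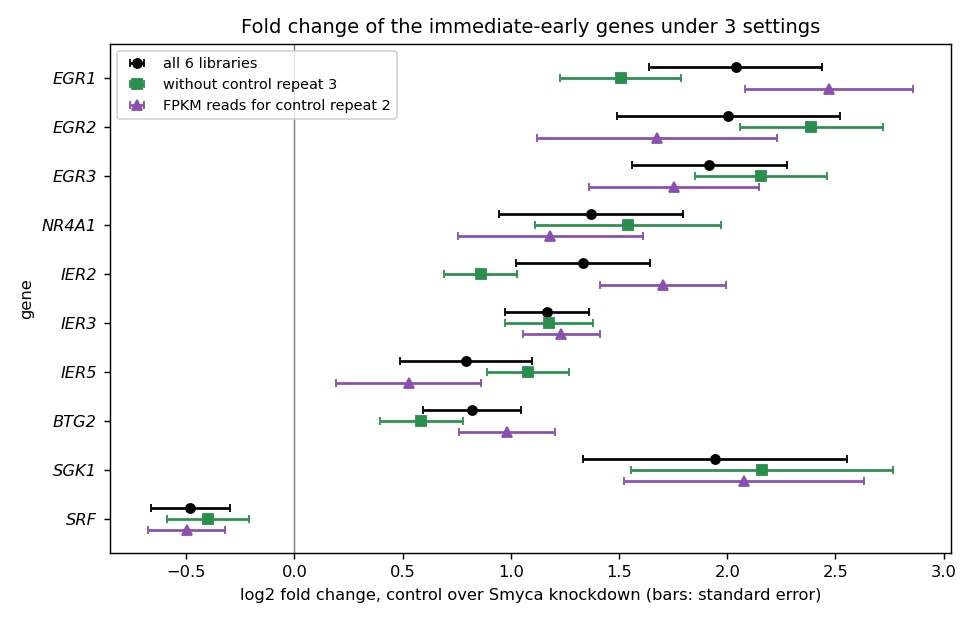
Log2 fold change of control over Smyca knockdown (x axis) for each gene (y axis), with its standard error as bars, from all 6 libraries (black circles), without control repeat 3 (green squares) and with the reads of the FPKM column for control repeat 2 (purple triangles). EGR1, IER2 and BTG2 are smaller without control repeat 3 (1.51, 0.86 and 0.59), EGR2 and IER5 are larger (2.39 and 1.08), and SRF is below 0 in each setting.

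The 10 genes did not follow 1 pattern among the control libraries. Control repeat 3 was the highest control for EGR1, IER2 and BTG2. Control repeat 1 was the highest for EGR2, EGR3, IER3, IER5, SGK1 and SRF, and control repeat 2 for NR4A1. Of all genes tested, 42.5% had their highest control value in repeat 3, 34.6% in repeat 1 and 23.0% in repeat 2. Control repeat 3 was at the same time the lowest control for 5 members, EGR2, EGR3, NR4A1, IER5 and SRF. On the scale of log2(normalized CPM + 1), centred on the 6 libraries, the mean over the 9 members other than SRF was 0.91, 0.53 and 0.53 in the control libraries. In the knockdown libraries the same mean was -0.54, -0.94 and -0.49.

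Without control repeat 3, the library with the high mitochondrial share, edgeR's quasi-likelihood test called 6 members, EGR1, EGR2, EGR3, IER2, IER3 and IER5. In that setting 6.50% of the genes tested were DEGs in this direction. In all, 1628 genes were DEGs there, in either direction.

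**Figure D3:**
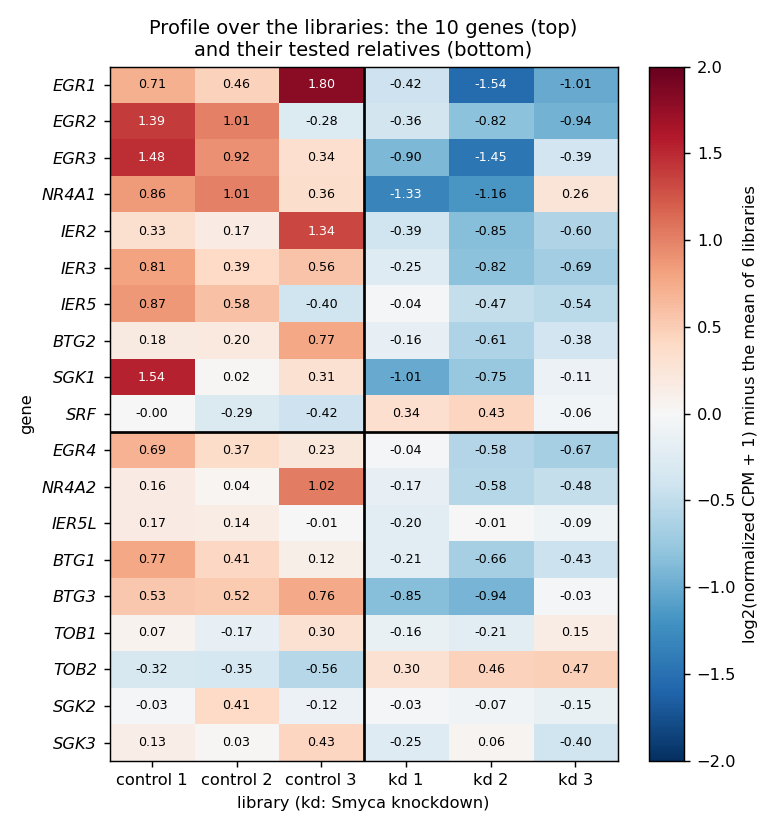
Profile of the 10 genes (above the black line) and their 9 tested relatives (below it) over the 6 libraries. Colour and number give log2(normalized CPM + 1) minus the mean of the 6 libraries, with control repeats at the left and knockdown (kd) repeats at the right. EGR1 peaks in control 3 (1.80), EGR2, EGR3 and SGK1 peak in control 1 (1.39, 1.48 and 1.54), and SRF and TOB2 are lower in the control.

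Among the 10464 genes compared, which left out the 10 genes themselves, those with the profile nearest to EGR1 were FOSB, JUN, ATF3, GDF15 and LINC02604, by the root mean square difference of centred log2(normalized CPM + 1) over the 6 libraries. The difference was 0.347 for FOSB and 0.391 for JUN, against a median of 1.17 over the genes compared. FOSB was at 20.2, 13.9 and 71.9 normalized CPM in the control and 8.64, 4.69 and 8.85 in the knockdown, with control repeat 3 on top as in EGR1. Within the 10 genes, IER2 was nearest to EGR1 (0.426), between ATF3 (0.423) and GDF15 (0.457). Genes near to SRF were ZNF574, SKI, APH1A and SNAPIN, from 0.0658 to 0.0871 against a median of 0.367. SKI, a corepressor of SMAD factors, was at 104, 94.9 and 84.0 normalized CPM in the control and 131, 138 and 113 in the knockdown. A gene with small changes, as SRF, has more near neighbours than one with large changes.

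Levels between the genes were compared per kilobase of the gene length behind the FPKM values. In the control, IER3 had the highest level at 480 ± 69.5 CPM per kilobase and EGR1 the next at 269 ± 143 (SD, n = 3 each). IER2 (50.6), NR4A1 (30.3), IER5 (25.4), EGR3 (25.1), SRF (19.9) and BTG2 (14.2) followed, and EGR2 (3.91) and SGK1 (3.72) had the lowest means. Between neighbours in this order, the ranges of the 3 libraries were apart only from EGR1 to IER2 and from BTG2 to EGR2. In the knockdown, IER3 (214) and EGR1 (65.6) still led, SRF came next at 27.8 CPM per kilobase, and EGR2 (0.970) and SGK1 (0.965) were last. There the ranges were apart from IER3 to EGR1, from EGR1 to SRF and from EGR3 to EGR2. SRF thus stood between EGR3 and BTG2 in the control and between EGR1 and IER2 in the knockdown.

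Of the 11 other genes of the same families, 9 could be tested, and 8 of them had a positive log2 fold change, with a median of 0.51. The median was 0.41 without control repeat 3 and 0.68 with the FPKM reads. With edgeR's quasi-likelihood test 0 were DEGs. At an unadjusted p under 0.05 there were 4 higher and 1 lower in the control (10.4% and 8.74% of all genes), and DESeq2 called 3 and 1 (3.32% and 2.22%). EGR4, a further EGR factor, was at 11.1, 8.68 and 7.75 normalized CPM in the control and 6.29, 3.99 and 3.70 in the knockdown, a log2 fold change of 0.98 (standard error 0.30). NR4A2 (Nurr1) was at 24, 22 and 44.4 in the control and 18.9, 14.0 and 15.1 in the knockdown, a log2 fold change of 0.91 (standard error 0.28). Both had no overlap between the groups, and NR4A2 shared the high value in control repeat 3 with EGR1. NR4A3 had too few counts for a test.

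In the BTG and TOB family, whose members bind deadenylase subunits, the directions differed. BTG1 was at 144, 112 and 91.3 normalized CPM in the control and 72.8, 53.0 and 62.1 in the knockdown, a log2 fold change of 0.89 (standard error 0.20). The log2 fold change of BTG3 was 1.28 (standard error 0.31). It overlaps the antisense gene BTG3-AS1, which had 67, 40 and 57 counts in the control and 8, 9 and 33 in the knockdown, and as the strand setting of the counting is not given in the sources used here, the reads of the pair may be mixed. TOB2 went the other way, with 72.4, 70.8 and 60.8 normalized CPM in the control and 112, 124 and 125 in the knockdown, no overlap and a log2 fold change of -0.83, with a standard error of 0.14 (adjusted p = 0.111 with edgeR's quasi-likelihood test). TOB1 (0.15), IER5L (0.21), SGK2 (0.27) and SGK3 (0.51) had smaller log2 fold changes, and BTG4 had 0 counts in each library.

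The pathway around these genes was described by lists taken from textbook roles. Of 12 SRF and CREB cofactors 11 were tested, 5 were higher in the control, and the median log2 fold change was -0.13. None was a DEG with edgeR's quasi-likelihood test (0) or with DESeq2 (0). At an unadjusted p under 0.05 there was 1, lower in the control as 8.74% of all genes were. That was MRTFA, the actin-regulated SRF cofactor, with 76.6, 66.5 and 67.3 normalized CPM in the control and 83.0, 90.5 and 86.8 in the knockdown, a log2 fold change of -0.31 (standard error 0.13). ATF1, a CREB relative, was also without overlap, as 12.5% of all genes were in this direction, at -0.25 on the log2 scale. The 14 kinases and receptors of the ERK cascade had a median of -0.0088, with 7 higher in the control and 0 DEGs with either tool. Only 1 had an unadjusted p under 0.05, higher in the control as 10.4% of all genes were. That was the receptor EGFR, at 30.7, 22.9 and 19.6 normalized CPM in the control and 11.2, 11 and 20.7 in the knockdown, where knockdown repeat 3 overlapped the control. MAP2K5, the kinase above ERK5, was without overlap (12.4% of all genes in this direction) at a log2 fold change of 0.47 (standard error 0.22). The median of this list turned to 0.18 without control repeat 3.

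Genes known as targets of SRF with MRTF cofactors in the cytoskeleton had a median log2 fold change of 0.13 over the 16 tested of 18, with 11 higher in the control. The median was 0.0031 without control repeat 1 and 0.31 without control repeat 3. With edgeR's quasi-likelihood test 0 were DEGs, 3 had an unadjusted p under 0.05, and DESeq2 called 2, all higher in the control (10.4% and 3.32% of all genes). FHL1, a LIM protein of muscle and stress fibres, was at 213, 164 and 107 normalized CPM in the control and 82.5, 54.9 and 81.9 in the knockdown, a log2 fold change of 1.14 (standard error 0.27). TAGLN, an actin-binding protein, was at 16.0, 15.3 and 10.8 in the control and 7.49, 5.83 and 5.81 in the knockdown, a log2 fold change of 1.14 (standard error 0.24). The most abundant genes of the list, ACTB (-0.11) and ACTG1 (0.14), had fold changes within their standard errors of 0.

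Of 6 corepressors and targets of EGR factors, 4 were higher in the control, with a median log2 fold change of 0.34, which was 0.049 without control repeat 1 and 0.23 without control repeat 3. No DEG was found by edgeR's quasi-likelihood test (0) or DESeq2 (0), and 1 had an unadjusted p under 0.05, higher in the control as 10.4% of all genes were. That was F3 (tissue factor), with 5.55, 5.35 and 7.04 normalized CPM in the control and 3.62, 4.12 and 3.57 in the knockdown. PDGFA, a growth factor gene with EGR1 sites, was at 384, 174 and 34.3 in the control and 137, 51.8 and 34.1 in the knockdown, so control repeat 3, with the highest EGR1 level, had the lowest PDGFA of the controls. NAB2, the EGR corepressor that EGR factors induce, was at 142, 96.4 and 67.8 in the control and 139, 144 and 121 in the knockdown, where the groups overlapped. Its log2 fold change was -0.40 (standard error 0.25), opposite in sign to those of EGR1, EGR2 and EGR3.

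For BTG2, the partner list is the 11 subunits of the CCR4-NOT deadenylase, of which 4 were higher in the control, with a median log2 fold change of -0.050. By edgeR's quasi-likelihood test and by DESeq2 there were 0 DEGs, and 2 had an unadjusted p under 0.05, both lower in the control (8.74% of all genes). CNOT9 was at 72.0, 74.3 and 89.8 normalized CPM in the control and 101, 101 and 118 in the knockdown, a log2 fold change of -0.44 (standard error 0.15). The deadenylase subunit CNOT6 was at -0.36 (standard error 0.14).

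For SGK1, 8 activators and substrates had a median log2 fold change of -0.043, with 0 DEGs by either tool. At an unadjusted p under 0.05 there were 1 higher and 3 lower in the control, against 10.4% and 8.74% of all genes. The latter were the upstream kinases PDPK1 (-0.39) and MTOR (-0.51) and the MTOR partner MLST8 (-0.57), each without overlap, as 12.5% of all genes were in this direction. MTOR was at 102, 112 and 117 normalized CPM in the control and 143, 151 and 177 in the knockdown. The gene on the other side was NDRG1, an SGK1 substrate and hypoxia gene, at 837, 347 and 36.4 in the control and 17.7, 16.0 and 78.7 in the knockdown. Its groups overlapped, and its log2 fold change of 3.44 had a standard error of 1.03. Of the 6 glucocorticoid receptor genes and targets 5 were tested, 4 were higher in the control, and edgeR's quasi-likelihood test gave 0 DEGs. The median was 0.74. At an unadjusted p under 0.05 there were 2 higher and 1 lower (10.4% and 8.74% of all genes), and DESeq2 called 0 and 1 (3.32% and 2.22%). FKBP5, a sensitive glucocorticoid target, was at 46.2, 68.1 and 45.3 normalized CPM in the control and 85.6, 78.6 and 85.3 in the knockdown, a log2 fold change of -0.64 (standard error 0.19), opposite in sign to SGK1. The receptor gene NR3C1 was at 0.68 (standard error 0.30).

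The other immediate-early genes, 25 AP-1, KLF and feedback genes picked with earlier results of these data known, had a median log2 fold change of 1.47, with 24 higher in the control. The median was 1.11 without control repeat 3 and 1.76 with the FPKM reads. By edgeR's quasi-likelihood test 3 of the 25 were DEGs, JUN, DUSP1 and ZFP36, where 0.0265% of all genes were. DESeq2 called 20 of the 25 (3.32% of all genes in this direction), and edgeR called 15 without control repeat 3 (6.50% of all genes), 2 without control repeat 2 and 0 without any 1 of the other libraries. FOS led the list with 3.30 on the log2 scale (standard error 0.40, adjusted p = 0.0605 with the same edgeR test), with control repeat 3 the highest. The exception in direction was MYC, at 658, 499 and 746 normalized CPM in the control and 755, 685 and 524 in the knockdown, a log2 fold change of -0.045 (standard error 0.20). Of these 25 genes 14 had their highest control value in repeat 3 and 9 in repeat 1, as EGR1 and EGR3 did in turn.

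Among 6 heat shock genes, which proteotoxic stress induces, 3 had their highest control value in repeat 1, as 6 members did. HSPA1A was at 200, 105 and 26.6 normalized CPM in the control and 16.3, 15.8 and 24.5 in the knockdown, and its near-identical copy HSPA1B, with which it can share reads, had the same order among the controls. DNAJB1 was at 708, 345 and 126 in the control and 159, 190 and 155 in the knockdown. Control repeat 3, where EGR1, IER2 and BTG2 were highest, had the lowest control values of these 3 heat shock genes. Over the 6 genes of the list the summed level was 1742 to 3002 normalized CPM in the control and 1670 to 2763 in the knockdown, 4 were higher and 2 lower in the control, HSPH1 (-0.38) and HSP90AA1 (-0.17), the median log2 fold change was 0.80, and edgeR's quasi-likelihood test gave 0 DEGs, with 3 at an unadjusted p under 0.05 and 1 with DESeq2, all higher in the control (10.4% and 3.32% of all genes). The median was 0.47 without control repeat 1. Their part in the results was not tested.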

How the data were processed

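RNA-seq libraries of 3 control shRNA and 3 Smyca shRNA #1 repeats were analysed, grouped by their labels. After rRNA removal and a strand-specific kit, the authors mapped paired-end reads to GRCh38 (hg38) with TopHat 2.0.12 and counted them with HTSeq. They deposited a read count and an FPKM value for each of 58302 Ensembl genes. FPKM values served only to obtain gene lengths and the whole reads behind the deposited FPKM column of control repeat 2 (23593 genes). Symbols came from GENCODE release 44 (57532 identifiers). The 10 genes, the gene lists and the tests were chosen with earlier results of these data known.

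Tests on the counts used edgeR 4.0.16 in R 4.3.3 (TMM, filterByExpr, quasi-likelihood test, limma 3.58.1 as its base) with Benjamini-Hochberg adjustment over all genes tested. The paper's DESeq was not used. The code was tested on simulated data. Adjusted p come from that fit. Each standard error was derived from it, as the size of the log2 fold change divided by the square root of its F statistic. Named were all 10 genes, their relatives, in each list the DEGs and the 2 genes with the largest fold change without overlap, genes a result turns on, the 5 genes nearest in profile to EGR1 and to SRF (mean of at least 100 normalized counts), and Smyca. EGFR, PDGFA, NAB2, NDRG1, PDPK1, MYC, ACTB, ACTG1, DNAJB1 and HSPA1B were named after their values were seen. A result for 1 gene is not reported here. Alternatives were RLE factors, library totals, other filters, DESeq2 1.42.0, a replicate block, each library left out, the FPKM reads and other thresholds. Counts were lowest in EGR2 and SGK1 among the 10 genes.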

Additional observations from a re-analysis of the deposited data

Results flagged for a closer look

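In control repeat 2, 3357 genes had 0 counts but an FPKM above 0, a signal in a column that the comparisons do not use. The 16759253 whole reads behind that column differed from the counts of control repeat 3 with a chi-square per degree of freedom of 2.35, against 15.7 to 82.9 between repeats of a group. For EGR1 the column held 24859 reads (8746 counts in the library itself), for IER2 2894 (1180), for EGR2 66 (130) and for IER5 1150 (1905), each on the side of control repeat 3.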

How the results depend on the processing

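No member changed direction under any of the 13 alternatives that refit the fold changes. The median log2 fold change of the 10 genes lay between 1.17 and 1.58 with each library left out in turn. The number of DEGs among all genes was 4, and 8 with library totals, 10 with the reads of the FPKM column (close to those of control repeat 3), 8 at an adjusted p under 0.1, 916 with no filter beyond 1 count and 836 with DESeq2. It ranged from 0 to 1628 with each library left out, the highest without control repeat 3. Members called as DEGs were 0, but 7 with no filter (all but IER5, BTG2 and SRF), where 568 of 30409 genes were called higher in the control. DESeq2 called 8 (all but IER5 and SRF), against 3.32% of all genes in that direction. With each library left out 0 to 6 were called, 6 of them without control repeat 3, against 6.50% of all genes in that direction. The cause of these differences in count was not tested. Library totals moved the median of all genes to 0.11, and no filter to 0.11, against 0.036. NR4A1 moved from 1.37 to 2.10 without knockdown repeat 3, IER2 from 1.33 to 0.86 without control repeat 3, and SGK1 from 1.94 to 1.16 and IER5 from 0.79 to 0.52 without control repeat 1. Adjusted p ranged over the alternatives from 6.17e-06 to 0.440 for EGR1 and from 0.143 to 0.520 for SRF. With the replicate block the DEGs were 0, the members called 0 and the median of the members 1.40. Repeats with the same number had correlations of deviations of 0.0607, 0.0842 and -0.0139, so the numbers do not pair the samples. EGR2 and SGK1 had the lowest counts of the members, at most 174 and 139 in any library, and the part of depth in their spread was not tested.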
